A study of Mus musculus with 18 samples.

Results

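Tmem119, Cx3cr1, Csf1 and Ank are 4 genes that are read as microglia genes in brain tissue, and their mRNAs are 4 of the 4922 that carried at least 1 listed peak of N4-acetylcytidine (ac4C) in mouse hippocampus. They were chosen by name, as every listed peak whose gene is 1 of these 4, which gave 17 of 24703 peaks. Of these, 11 lay in wild-type (WT) samples and 6 in 5xFAD samples. The peaks come from acRIP-seq, in which an antibody against ac4C pulls down fragments of RNA for sequencing, done on the hippocampus of 3 WT and 3 5xFAD samples, all taken at an age of 3 months. The 5xFAD mice carry human transgenes with mutations of familial Alzheimer disease, APP among them, expressed in neurons from the mouse Thy1 promoter, and the WT mice carry none. The methods describe the mice of both genotypes as female and also as male and female littermates, and do not say whether a sample pooled animals. The series has 18 libraries, of which the 12 input and IgG libraries have no peak list of their own here.

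Microglia are the resident macrophages of the brain. TMEM119 is a membrane protein widely used to mark them, and CX3CR1 is their receptor for fractalkine, the chemokine CX3CL1 that neurons carry on their surface and shed. CSF1 is a secreted ligand of the receptor CSF1R, on whose signal microglia depend for survival. ANK, the progressive ankylosis protein, is a membrane transporter that controls the release of pyrophosphate from cells. In mice, Tmem119 and Cx3cr1 belong to the signature of resting, homeostatic microglia, whereas Csf1 and Ank belong to the genes of the disease-associated microglia found near amyloid plaques. ac4C is an acetylated cytidine written by the enzyme NAT10, and in human mRNA it has been described in coding sequence and in regions rich in CNN repeats.

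The measure is fold enrichment (FE), which according to the methods is the acRIP signal less the IgG signal, over the input. The values of all peaks on an mRNA were added up to its summed FE, which is 0 in a sample where none was listed. An mRNA listed in at least 2 of 3 WT samples but not in 2 of 5xFAD is called AD absent, the reverse AD unique, and one listed so in both genotypes overlay. The 4493 mRNAs of these 3 classes are the classed mRNAs. FE is a ratio to input and not a level of mRNA, and a sample without a listed peak may still carry ac4C. The tissue was whole hippocampus, so the peaks do not say which cells the RNA came from, and fewer cells of a type and less RNA per cell cannot be told apart. Both Csf1 and Ank are also transcribed in brain cells other than microglia.

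The sequences of the coding peaks of Tmem119 and Ank are shown because these stretches had a high FE in WT. In 5xFAD the Tmem119 stretch was listed with a low FE, and the Ank stretches were not listed. Capitals mark the bases covered by matches to CNNCNNCNNCNN, a motif of 4 CNN triplets searched on the mRNA strand with overlapping matches allowed. The Tmem119 stretch is chr5:113795329-113795551 on the minus strand (mm10), 223 bases of exon 2, and it is the peak of WT 2 and of both 5xFAD samples that had one. The Ank stretches are chr15:27562724-27562894, the whole of exon 5, and chr15:27564902-27564921, the first 20 bases of exon 6, both on the plus strand (mm10).
Tmem119 exon 2: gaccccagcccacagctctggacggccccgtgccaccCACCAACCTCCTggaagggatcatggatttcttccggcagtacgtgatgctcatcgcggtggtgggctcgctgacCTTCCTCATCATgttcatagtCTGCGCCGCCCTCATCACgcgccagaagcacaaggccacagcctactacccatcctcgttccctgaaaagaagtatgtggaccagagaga
Ank exon 5: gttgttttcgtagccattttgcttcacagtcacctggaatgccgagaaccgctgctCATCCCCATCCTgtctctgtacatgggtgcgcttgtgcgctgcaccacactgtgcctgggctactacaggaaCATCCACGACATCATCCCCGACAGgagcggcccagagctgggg
Ank exon 6: ggtgatgcaaccataagaaa

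The Tmem119 stretch held 5 matches, which cover 42 bases, and the Ank exon 5 stretch 6 matches, which cover 36 bases. Among peaks within 10% of their length, 67.6% of 1624 and 61.8% of 657 held at least 1 match, with a median of 1 match in both sets. The reverse strand held 1 match in the Tmem119 stretch and 0 in Ank exon 5. The 20 bases of Ank exon 6 held none, as did most peaks of that length, of which 1.44% held 1. The peaks of both other mRNAs lie in 3′ UTRs, and they held 2 matches in Cx3cr1 and 3 in Csf1 against a median of 2 in peaks of like length. A match is a description of the letters and not a site of acetylation.

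The 4 mRNAs fell into all 3 classes. Tmem119 was in the overlay and lower in 5xFAD, Cx3cr1 and Ank were AD absent, and Csf1 was AD unique. Two-sided exact permutation tests gave p = 0.1 for each, the smallest value that 3 against 3 samples allow. Over the 4493 classed mRNAs, 40.4% were AD absent and 34.6% AD unique, so 2 of 4 and 1 of 4 are close to what the whole data set shows. The summed FE of every WT sample lay above that of every 5xFAD sample for 3 of the 4 mRNAs and for 41.4% of all. The reverse held for Csf1 and for 34.1% of all.

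**Figure D1:**
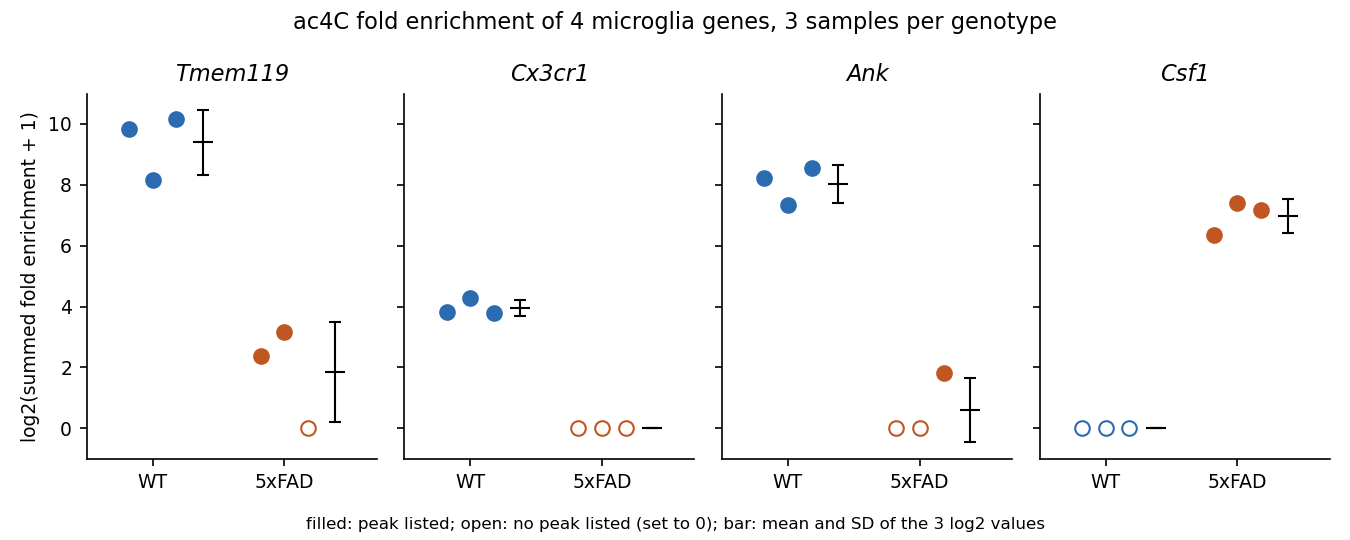
Summed FE of the 4 mRNAs in each sample, as log2(FE + 1), with filled points for samples with a listed peak, open points for samples without one, and bars for the mean and SD of the 3 log2 values. No mRNA has overlapping genotypes: the WT points of Tmem119, Cx3cr1 and Ank lie above the 5xFAD points, and those of Csf1 lie at 0.

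Tmem119, the microglial membrane protein, had an FE of 919.8, 287.1 and 1139 in WT 1, 2 and 3. In 5xFAD it had an FE of 4.18 and 8.04 in samples 1 and 2 and no listed peak in sample 3. WT 2 was the lowest of the WT samples, and still 35.7 times the highest 5xFAD value, so the genotypes did not overlap. The mean was 782 ± 443 (SD, n = 3) in WT and 4.07 ± 4.02 (SD, n = 3) in 5xFAD. On the log2(FE + 1) scale the difference was -7.54 with a standard error of 1.01, and limma over the 1121 overlay mRNAs gave an adjusted p of 0.00194. In that fit 32.3% of the overlay mRNAs were called lower in 5xFAD, at an adjusted p under 0.05 and a fold of at least 2.

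Within its own sample, Tmem119 stood near the top of the list in WT and near the bottom in 5xFAD. Its FE was at or above that of 98.0%, 86.6% and 98.5% of the mRNAs with a peak in WT 1, 2 and 3, where 55, 395 and 42 mRNAs had a higher one. In 5xFAD 1 and 2 it was at or above 6.62% and 19.8%. The WT samples spread widely, with a coefficient of variation (SD over mean) of 56.6%, and 90.02% of the 2344 mRNAs found in all WT samples had a smaller one. The peak caller's false discovery rate (FDR) for Tmem119 lay between 20.15% and 22.4% in WT and was 100% in both 5xFAD samples. Its membership of the overlay rests on those 2 weak peaks: with an FE of at least 5, or an FDR under 100%, Tmem119 was AD absent.

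All Tmem119 peaks lay at one place, in exon 2 of 2 and wholly inside the coding sequence. They spanned 226 bp in WT 1 (chr5:113795326-113795551), 343 bp in WT 3 (chr5:113795247-113795589) and the same 223 bp in WT 2, 5xFAD 1 and 5xFAD 2. The smaller peaks begin 187 nt after the first base of the start codon and the WT 3 peak 149 nt after it, on an mRNA of 2122 nt. The authors' label for these peaks is startC, their class for the start codon, although no Tmem119 peak holds a base of that codon. Of 1602 startC peaks with a gene model, 66.0% hold such a base, 25.6% begin after it and 3.56% begin at least as far after it as the WT 3 peak. Merged over samples, the Tmem119 peaks form 1 region that was called in both genotypes, as did 497 of the 7941 regions called in either (6.26%).

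Ank, the pyrophosphate transporter, had a summed FE of 294.7, 162.3 and 376.4 in WT 1, 2 and 3. No peak was listed in 5xFAD 1 and 2, and 5xFAD 3 had an FE of 2.54. The sum was again lowest in WT 2, where only 1 Ank peak was listed, and the genotypes did not overlap. The mean was 278 ± 108 (SD, n = 3) in WT and 0.847 ± 1.47 (SD, n = 3) in 5xFAD, a difference of -7.43 on the log2(FE + 1) scale (exact permutation p = 0.1). Ank stood at or above 87.8%, 77.1% and 89.6% of the mRNAs of WT 1, 2 and 3, and its WT coefficient of variation was 38.9%.

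The Ank values of WT come from coding sequence. The peak on exon 5 had an FE of 125.3, 162.3 and 147.5 in WT 1, 2 and 3. The peak on the first bases of exon 6 had an FE of 169.4 in WT 1 and 228.9 in WT 3 and was not listed in WT 2, so that the sum of WT 2 holds exon 5 alone. On the spliced mRNA of 3498 nt both stretches meet at the junction, at positions 844 to 1014 and 1015 to 1034, so that 1 stretch of mRNA is listed as separate genomic peaks and is counted for both in the sum. The single Ank peak of 5xFAD 3 was elsewhere, in the 3′ UTR at chr15:27593824-27594169, 607 nt after the last coding base, with an FDR of 100%. No Ank region was called in both genotypes.

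Cx3cr1, the fractalkine receptor, had an FE of 13.26, 18.26 and 12.79 in WT 1, 2 and 3 and no listed peak in any 5xFAD sample. WT 2 was the highest here. The mean was 14.8 ± 3.03 (SD, n = 3), and the difference on the log2(FE + 1) scale was -3.96 (exact permutation p = 0.1). The FE was modest for a WT mRNA, at or above 26.2%, 32.5% and 25.3% of the mRNAs of WT 1, 2 and 3. The coefficient of variation was 20.5%, the smallest of the 4 genes but slightly above the median of 17.9% over all mRNAs found in 3 WT samples.

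The Cx3cr1 peak had identical ends in all 3 WT samples, chr9:120049843-120050129 on the minus strand, 287 bp of exon 2. It lies in the 3′ UTR and begins 1141 nt after the last coding base, at positions 2307 to 2593 of an mRNA of 3753 nt. Its FDR was 32.02%, 27.89% and 36.53%, higher than that of Tmem119 in each WT sample.

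Csf1, the ligand of CSF1R, was the only one of the 4 with peaks in 5xFAD alone. Its FE was 79.75, 166.9 and 142.0 in 5xFAD 1, 2 and 3, and no peak was listed in WT. The highest sample was 2.09 times the lowest. The mean was 129.5 ± 44.9 (SD, n = 3), and the difference on the log2(FE + 1) scale was 6.96 (exact permutation p = 0.1). Csf1 stood at or above 69.8%, 81.6% and 78.6% of the mRNAs of 5xFAD 1, 2 and 3, and its coefficient of variation of 34.6% was above the median of 21.4% over 2135 mRNAs.

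The Csf1 peak lay in the 3′ UTR in exon 9 of 9, at chr3:107742778-107743034 on the minus strand in 5xFAD 1, with ends that differed by at most 5 bp in the other two. It begins 125 nt after the last coding base in 5xFAD 1 and 2 and 130 nt after it in 5xFAD 3, on the mRNA NM_007778 of 4176 nt. The same bases are exonic in the transcript NM_001113529 and not exonic in NM_001113530, so the peak lies on 2 of the 3 curated Csf1 transcripts. Its FDR was 30.34%, 26.47% and 22.11%.

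**Figure D2:**
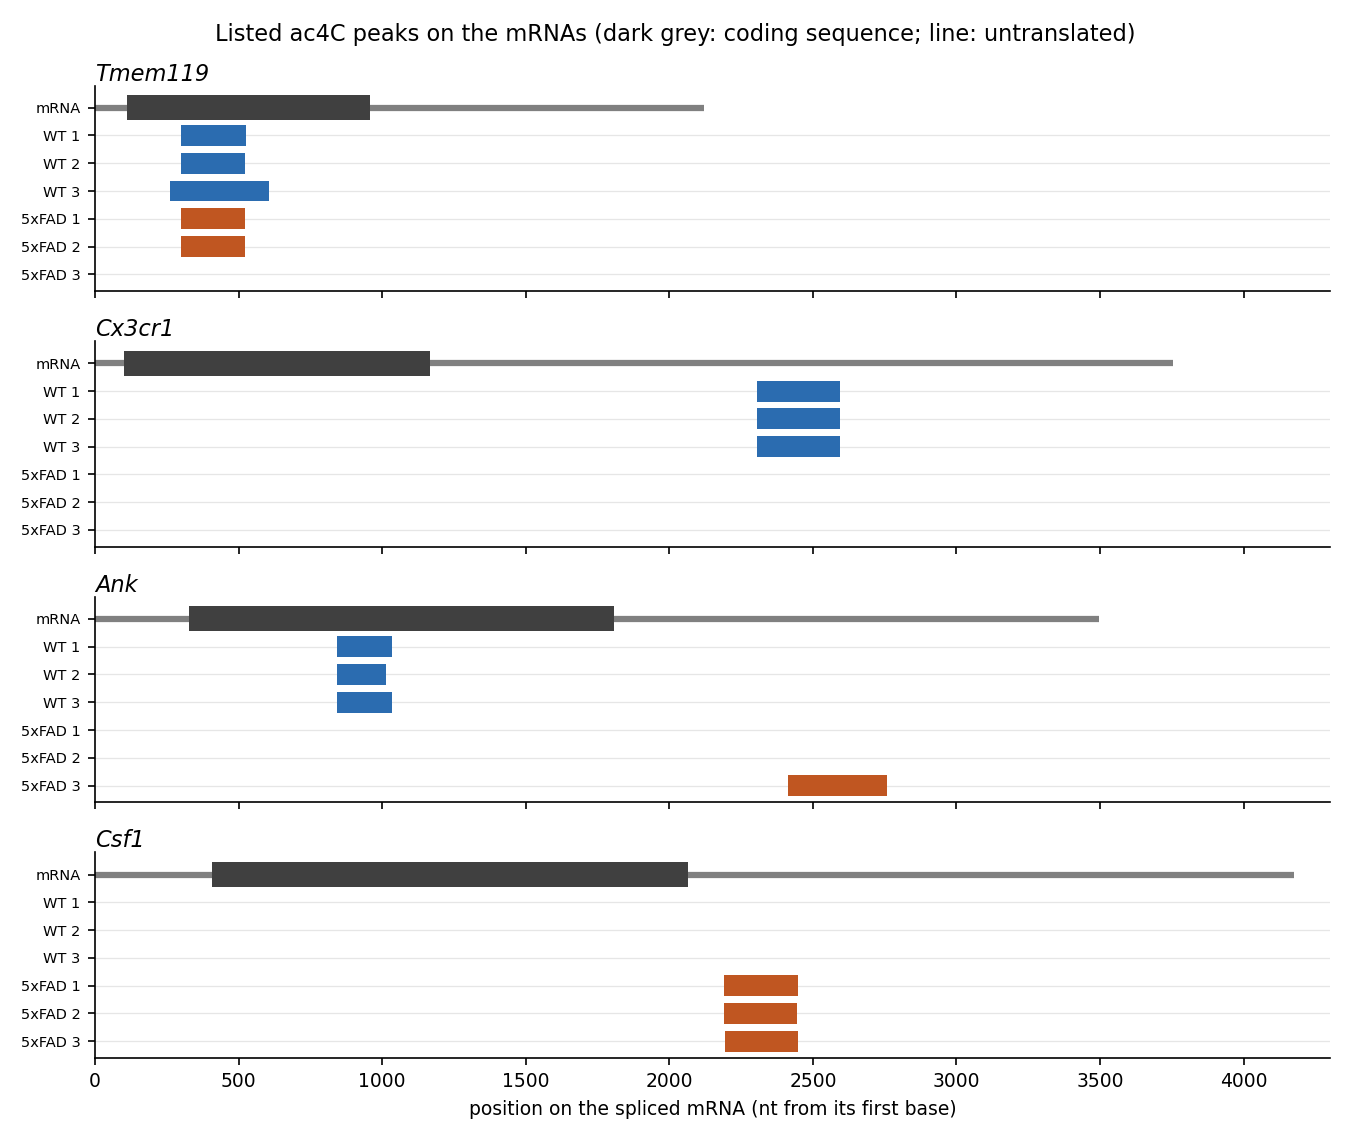
Listed peaks of the 4 mRNAs by sample, with the position in nt from the first base of the spliced mRNA on the x axis and 1 line per sample, under a bar for the coding sequence. The Tmem119 and WT Ank peaks lie in coding sequence, the Cx3cr1 peak 1141 nt and the Csf1 peaks 125 to 130 nt past it, and only Tmem119 has a peak at the same place in both genotypes.

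The peaks of the 4 mRNAs shared a cytidine content at or above that of their mRNA, apart from the 20 bases of Ank exon 6. This is common, since the median peak held 0.73 percentage points more cytidine than its mRNA. The Tmem119 peak of 223 bp was 34.98% cytidine against 30.35% of its mRNA, and 86.3% of peaks of like length held no more. Ank exon 5 was 32.2% cytidine against 26.7%, and Cx3cr1 28.9% against 24.5%, with 79.45% and 66.3% of peaks of like length at or below them. The Csf1 peak of 257 bp was 29.6% cytidine against 27.95%, with 62.2% at or below it, and Ank exon 6 was 15.0%, with 18.75%. Over 12994 peaks with distinct ends the median was 26.2%. An end on an exon end, as in Ank, was common, in 75.02% of all peaks.

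The 3 mRNAs most like each member by their 6 values (Euclidean distance of log2(FE + 1)) were no microglia genes of the lists used here. Those lists hold few candidates, as 12 homeostatic and 13 disease-associated genes had any peak, out of 4922 mRNAs. Finding none among the nearest therefore says little about the members. For Tmem119 they were Ptgfrn at a distance of 0.79, Flrt1 at 1.33 and Megf11 at 1.63. Ptgfrn, an immunoglobulin superfamily membrane protein, had an FE of 765.6, 350.6 and 1228 in WT, 7.23 and 7.35 in 5xFAD 1 and 2, and none in 5xFAD 3. Like Tmem119, it had a low WT 2 value and no peak in 5xFAD 3, which follows from its choice by these 6 values. For Cx3cr1 the nearest were Mrpl17, Sowaha and Kctd17, at 0.16, 0.17 and 0.18, and all 3 carry 3′ UTR peaks in WT alone.

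For Csf1 the nearest were Rimbp2, a presynaptic scaffold protein, at 0.19, the neuropeptide Y receptor Npy5r at 0.23 and the histone acetyltransferase Kat2a at 0.38. Rimbp2 had an FE of 82.32, 183.4 and 154.7 in 5xFAD 1, 2 and 3. The order of its samples is that of Csf1, as its choice by these values implies. For Ank the nearest were Rgs17 at 0.77, Mtmr3 at 0.99 and Nras at 1.00. Nras, a small GTPase on the path below CSF1R, had an FE of 182.3, 179.7 and 233.4 in WT and of 2.1 in 5xFAD 3. Among the 4 mRNAs themselves the closest were Tmem119 and Ank, at 5.00, and the farthest Tmem119 and Csf1, at 18.75.

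Most homeostatic microglia genes had no listed peak. Most mRNAs that the paper's RNA-seq detected had none either, since it detected far more than the 4922 that carried a peak. Of the 55 homeostatic genes, 12 had any peak and 10 were classed, of which 5 were AD absent, 2 overlay and 3 AD unique. A peak was more common on other lists, on 11 of 15 astrocyte, 9 of 15 oligodendrocyte, 11 of 15 neuron and 4 of 10 endothelial genes. It was rarer among genes of border macrophages and monocytes, on 1 of 16. Over all 4493 classed mRNAs, 1817 were AD absent, 1121 overlay and 1555 AD unique. Among the genes with none were P2ry12, Csf1r, Trem2, Aif1 and Itgam, all used as markers of microglia. Besides Tmem119, the overlay held Bin1, a membrane-bending adaptor that many brain cells express, with an FE of 19.06, 22.94 and 21.38 in WT and 26.71, 32.56 and 34.85 in 5xFAD (limma adjusted p = 0.0769). The median difference of the 10 genes was -3.34 on the log2(FE + 1) scale, beside -1.21 over all classed mRNAs.

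In WT alone, as Cx3cr1, were the purinergic receptor P2ry13, the TGF-beta receptor Tgfbr1, the complement subunit C1qc and the ectonucleotidase Entpd1. Entpd1, which breaks down extracellular ATP, had an FE of 304.7, 342.5 and 329.4, above the WT values of Cx3cr1 and in the range of Ank. Tgfbr1 had 99.27, 129.3 and 99.92, whereas P2ry13 and C1qc lacked a peak in WT 1. In 5xFAD alone were the phagocytic receptor Mertk, at 33.55, 28.89 and 43.5, the protease Ctss, at 2.25, 3.41 and 6.97, and the tetraspanin Cd81, which had no peak in 5xFAD 1.

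Of 48 disease-associated microglia genes, among them Csf1 and Ank, 13 were classed: 8 were AD absent, 3 overlay and 2 AD unique. Over all classed mRNAs 40.4% were AD absent and 34.6% AD unique. The 3 overlay genes all passed limma, 2 lower and 1 higher, and over the whole overlay 53.1% passed, 32.3% lower and 20.8% higher. Apoe, the lipid carrier, was lower in 5xFAD, with an FE of 27.67, 26 and 43.79 in WT and 12.58, 5.92 and 5.24 in 5xFAD (limma adjusted p = 0.0101). Hif1a, the hypoxia factor, was also lower, with 55.82, 68.57 and 60.58 against 18.49, 13.93 and 12.15 (limma adjusted p = 0.00124). The lysosomal protease Ctsb was higher, with 8.82, 9.26 and 11.24 in WT and 36.14, 44.16 and 41.32 in 5xFAD (limma adjusted p = 8.26e-04).

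The lectin-binding glycoprotein Lgals3bp, the adhesion molecule Cadm1, the ester hydrolase Nceh1 and the lysosomal protease Ctsd had peaks in all WT samples and in none of 5xFAD, whereas Ank also had its weak peak in 5xFAD 3. Lgals3bp had an FE of 94.55, 98.83 and 103.8, Cadm1 of 94.96, 90.19 and 90.73, and Ctsd only of 3.26, 4.1 and 3.87. The other AD absent genes were Timp2, B2m and Serpine2, each with no peak in 1 WT sample. Serpine2 had a single high peak in 5xFAD 1, at 38.08, and lower ones in WT 1 and 2, at 5.92 and 7.85, so its class does not follow its mean. Beside Csf1, the AD unique gene was Ctsl, another lysosomal protease, which also had an FE of 175 in WT 1. The median difference of the 13 genes was -2.24.

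**Figure D3:**
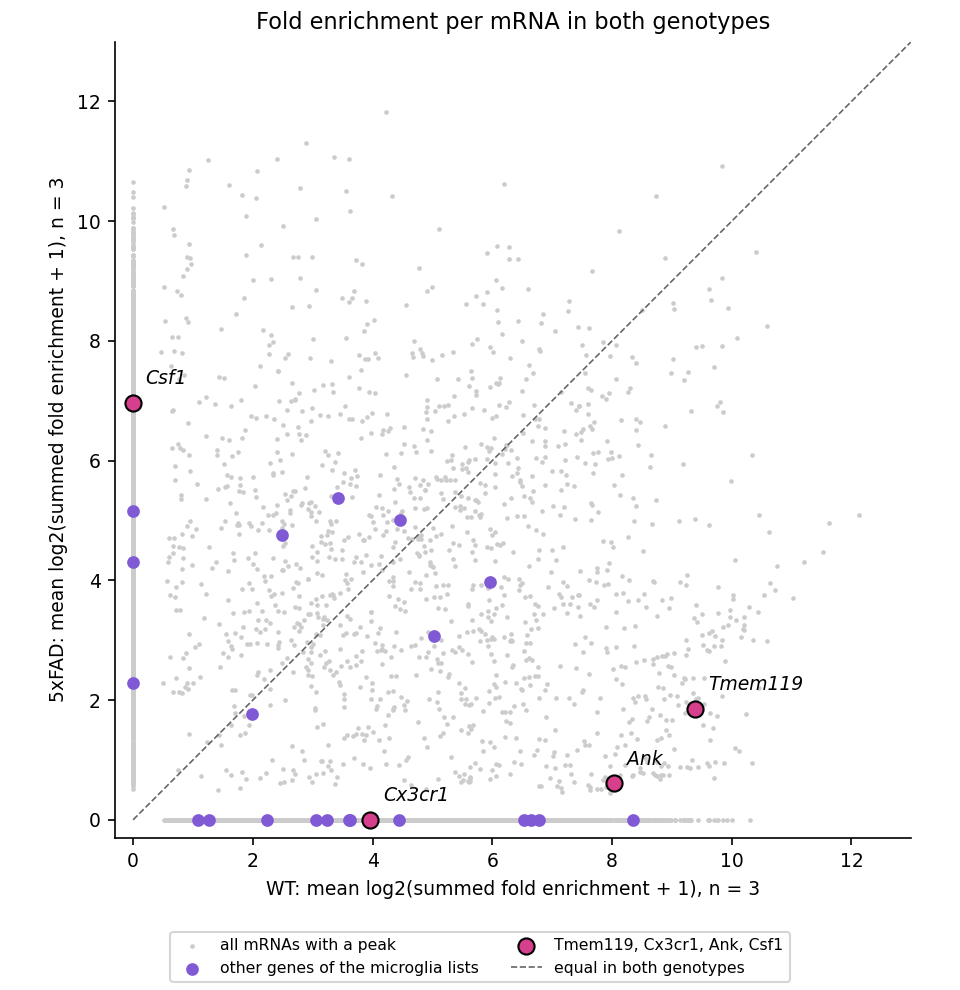
Mean log2(FE + 1) over 3 samples in WT (x axis) and 5xFAD (y axis) for 4922 mRNAs with a peak in grey, with the 4 genes and the other genes of both microglia lists in colour. Cx3cr1 lies on the x axis and Csf1 on the y axis, where mRNAs without a peak in the other genotype lie, and Tmem119 and Ank lie at the lower right, at 9.39 and 8.04 in WT and 1.85 and 0.61 in 5xFAD.

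CSF1 reaches microglia through CSF1R, which signals by way of adaptors, PI3 kinase and AKT, and the RAS and MAP kinase path. Of 40 genes on that route 13 were classed, 8 AD absent, 0 overlay and 5 AD unique, with a median difference of -3.49. Over all classed mRNAs 40.4% were AD absent and 34.6% AD unique, with a median difference of -1.21. Neither the receptor Csf1r nor its other ligand Il34 had a listed peak, so Csf1 was the only one of the 3 with ac4C peaks.

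The PI3 kinase genes on this route differed in class. Of these, the catalytic subunit Pik3cd had an FE of 40.93, 34.63 and 36.3 and the regulatory subunit Pik3r2 of 74.8, 98.31 and 94.97 in 5xFAD alone, as Csf1, whereas Pik3ca had peaks in WT 1 and 3 alone, at 90.27 and 84.08. The kinase Akt1 was AD unique, with an FE of 33.97 in 5xFAD 1 and 53.95 in 5xFAD 3 and no peak in 5xFAD 2. The adaptor Grb2, the exchange factor Sos2, the ubiquitin ligase Cblb, the kinases Src and Map2k1, the GTPase Nras and the inhibitor Spred1 were AD absent. Map2k1 had an FE of 16.19, 15.8 and 18.89, and Spred1 had 520.4, 5.12 and 511.5, with WT 2 the lowest. WT 2 was also the lowest for Tmem119 and for the sum of Ank, although the Ank exon 5 peak was highest there.

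Fractalkine, the ligand of CX3CR1, was AD absent like its receptor. Cx3cl1 had an FE of 41.96, 55.99 and 4.7 in WT and of 7.99 in 5xFAD 3 alone, so the genotypes overlapped, unlike those of Cx3cr1. Neither sheddase, Adam10 or Adam17, had a listed peak. Of 22 genes on this route 11 were classed, 4 AD absent, 3 overlay and 4 AD unique, with a median difference of -0.50. These counts are near the 40.4% AD absent and 34.6% AD unique of all classed mRNAs.

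CX3CR1 couples to inhibitory G proteins, and their subunits showed every class. Gnb2, a beta subunit, had an FE of 164.9, 202.8 and 221.8 in WT alone, while the gamma subunit Gng2 had 23.84, 24.88 and 19.83 in 5xFAD alone. The alpha subunit Gnai1 was AD unique, at 28.8, 31.56 and 69.99, with a peak of 4.32 in WT 2. In the overlay, Gnb1 had 15.58, 14.3 and 14.21 in WT and 10.0, 11.35 and 8.98 in 5xFAD (limma adjusted p = 0.0766), and Gnao1 was not called either (limma adjusted p = 0.388). The receptor kinase Adrbk1, now named Grk2, was called lower in 5xFAD, with 65.92, 108.6 and 37.24 in WT against 10.31 and 8.8 in 5xFAD 1 and 3 and no peak in 5xFAD 2 (limma adjusted p = 0.0319). The adenylate cyclases Adcy5 and Adcy9 were AD unique and the phospholipase Plcb1 AD absent.

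Around Ank, the genes of pyrophosphate and phosphate handling split evenly, close to the 40.4% AD absent and 34.6% AD unique over all classed mRNAs. Of 19, 8 were classed, 4 AD absent and 4 AD unique, with a median difference of -0.13. The phosphate importers went opposite ways: Slc20a2 had an FE of 16.31, 17.47 and 21.83 in WT alone, and Slc20a1 4.01, 4.5 and 11.11 in 5xFAD alone. AI464131, now named Myorg, was AD absent with no peak in WT 3. Pdgfb and its receptor Pdgfrb were AD unique, with 10.26, 7.35 and 6.02 for Pdgfrb, as was the pyrophosphatase Ppa1. Enpp1, which makes pyrophosphate, and Alpl, which breaks it down, had no listed peak.

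Markers of the other cell types of hippocampus moved in both directions too, and their part in the values above was not tested. Of 16 genes of border macrophages and monocytes only Cd14 had a peak, with an FE of 5.56 in 5xFAD 3. Of 15 astrocyte genes 10 had a class (2 AD absent, 4 overlay and 4 AD unique), of 15 oligodendrocyte genes 6 (2, 2 and 2), of 15 neuron genes 11 (3, 6 and 2) and of 10 endothelial genes 3 (2, 0 and 1). The median differences were 1.46, -1.96, -0.76 and -4.55, beside -1.21 over all classed mRNAs, of which 40.4% were AD absent and 34.6% AD unique. Limma called 2 astrocyte, 1 oligodendrocyte and 2 neuron genes of the overlay lower and 0 higher, out of 12, beside 32.3% lower and 20.8% higher over the whole overlay. The mRNA of Nat10, the ac4C writer, had no listed peak in any sample.

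Across the series, a sample had between 3734 and 4558 listed peaks on 2575 to 2938 mRNAs, more in each WT than in each 5xFAD sample. The median FE of a peak was 23.15 to 24.24 in WT and 19.97 to 22.58 in 5xFAD, and FE was not scaled between samples. No read count stands beside an FE, which leaves its depth unknown. The listed FDR starts at 20.15%, and 0 peaks lie under the 5% that the methods name. The samples are called independent but are not tied to single animals, so the tests measure the spread between these samples, which may in part be technical.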

How the data were processed

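According to the methods, the authors trimmed reads with cutadapt 1.9.3, aligned them to mm10 with HISAT2 2.04 and called peaks per sample with MACS against the input. They kept peaks on exons of protein-coding genes and removed those overlapping an IgG peak. The deposited fold enrichment is a ratio by the authors, the deposited FDR is a percent value, and the deposited score is the peak caller's own. Depth per sample is unknown, since the lists hold no counts.

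Peaks were summed per mRNA, and log2(FE + 1) was compared by exact permutation tests and, for the overlay, by limma 3.58.1 (Benjamini-Hochberg), tested on simulated data. Cells that a spreadsheet had turned into dates were decoded. Peaks that shared at least 1 bp across samples formed a region. Transcripts and sequences are from RefSeq (GRCm38, the build mm10), read with pysam 0.24.0 in Python 3.11.15, and figures were drawn with matplotlib 3.10.9.

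The 4 genes, the 10 gene lists and the rule for named genes were chosen with earlier results of these data known. Named genes are the 4, the 3 nearest mRNAs of each, listed genes in 1 of the 3 classes, and Nat10. Listed genes said to have no peak, and Cd14, were named after their values were seen. Some listed genes are not reported here by name. The number of columns of other samples was 0.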

Additional observations from a re-analysis of the deposited data

How the results depend on the processing

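The direction of the difference was the same for Tmem119, Cx3cr1, Csf1 and Ank under all 15 alternatives each. Most of these could not reverse it. The genotypes do not overlap, so leaving out a sample or changing the pseudocount keeps the direction, and the limma fits repeat the same difference. For Tmem119, Cx3cr1 and Csf1, with at most 1 peak per sample, the highest and the mean FE equal the sum. In 1 limma fit over all 4493 mRNAs, 3233 were called, and the adjusted p of Tmem119 was 0.0012. The differences are the same there by construction. Cx3cr1, Csf1 and Ank entered that fit only through the genotype where they are high, so it is no test of them. That fit takes the 0 of a sample without a peak as measured and equal. The size depends on the pseudocount: with 10 and 0.1 it ran from -1.30 to -7.20 for Cx3cr1, 3.75 to 10.27 for Csf1, -5.64 to -8.79 for Tmem119 and -4.66 to -9.78 for Ank. Leaving out 1 sample gave -6.62 to -8.20, -3.81 to -4.05, 6.75 to 7.28 and -7.13 to -8.04 for Tmem119, Cx3cr1, Csf1 and Ank, with 532 to 584 overlay mRNAs called.

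Tmem119 left the overlay with an FE of at least 5, an FDR under 100% and without 5xFAD replicate 1 or 2, since fewer than 2 5xFAD peaks remain, and also with a peak required in 3 of 3 samples. In the 11 alternative fits that held it, its limma adjusted p was 4.86e-04 to 0.0196. Its count of 1 region in both genotypes became 0 with identical ends, 3 of 3 samples or an FE of at least 5. Limma called 253 overlay mRNAs in place of 595 with an FDR under 100%, and the overlay held 728 in place of 1121 with a peak in 3 of 3 samples. No pairing by replicate number showed in the FE values (correlations of -0.00038, -0.00775 and -0.035, and 0 of 6 samples closest to its own number). These values cannot tell whether the samples were prepared in pairs. With the replicate block limma called 537 overlay mRNAs. In the fit over all mRNAs with that block, the differences were -7.54, -3.96, 6.96 and -7.43 for Tmem119, Cx3cr1, Csf1 and Ank. They equal those without the block by construction. The limma adjusted p of Tmem119 was 0.0122 there. That fit is again no test of Cx3cr1, Csf1 and Ank, which entered it only through the genotype where they are high.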
